A study of Homo sapiens with 4 samples.

Results

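The human NKG2D ligand genes are 8 genes in 2 clusters on chromosome 6, taken here by symbol: MICA, MICB, ULBP1, ULBP2, ULBP3, RAET1E, RAET1G and RAET1L. Each symbol matched 1 of the 60766 features measured, and 6 of the 8 reached the mean level required for testing, as did 13605 features in all. They were read in HCT116, a widely used line from a human colon carcinoma, in 2 libraries labelled control and 2 labelled shARID1A, in which a short hairpin RNA targets ARID1A, a large subunit of SWI/SNF, a complex that remodels chromatin and contacts DNA. All 4 libraries came from the same line in the same medium. The labels name neither the hairpin sequence nor the control vector, and do not say whether a knockdown library came from a pool or a clone. The design text gives the relation between ARID1A loss and immune functions as the question.

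NKG2D is an activating receptor of natural killer cells and of cytotoxic and gamma delta T cells, encoded by KLRK1. Its ligands are distant relatives of MHC class I heavy chains that bind no peptide, are scarce on most healthy cells and are induced by DNA damage, heat shock, viral infection and transformation. MICA and MICB carry a transmembrane segment, ULBP1, ULBP3 and RAET1L (the ULBP6 gene) are held by a glycosylphosphatidylinositol (GPI) anchor, ULBP2 is found mainly in the anchored form, and RAET1E (ULBP4) and RAET1G (ULBP5) encode transmembrane forms. Metalloproteases can release several of these proteins from the tumour cell surface, which lowers recognition by the receptor. All values below are RNA levels.

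Levels are in FPKM, fragments normalized to transcript length and library size, and changes are knockdown minus control in log2(FPKM + 1), so those of weakly expressed genes come out smaller than their true ratio. A gene is said to have risen or fallen where limma, fitted across all 13605 features with a mean of at least 1 FPKM, gave a Benjamini-Hochberg adjusted p under 0.05. The depth, estimated from the steps between low values, was 68750000 to 76500000 fragments per library. ARID1A was at 11.1 and 11.4 FPKM in control cells against 7.05 and 6.13 after knockdown, 58.7% of the control mean, so the target was lowered and not lost. Mitochondrial transcripts took 4.29% to 4.35% of all FPKM in control cells and 5.65% to 6.04% after knockdown. The part of that difference in the results was not tested. Of 10 colon epithelium markers, EPCAM, CDH1, CDX2 and 3 keratin genes were above 1 FPKM, while CDX1 was listed at 0 and VIL1, GPA33 and CEACAM5 stayed at or below 0.207 FPKM. EPCAM, an epithelial adhesion molecule, fell from 311.9 ± 0.233 to 143.9 ± 4.27 FPKM, while the keratin genes KRT8, KRT18 and KRT19 rose (883 to 1433, 849 to 1134 and 889 to 1334 FPKM in the group means; limma adjusted p at most 0.00288 for the 4). The 10 markers summed to 2920 to 3025 FPKM in control cells and 4003 to 4160 after knockdown. The 12 leukocyte markers summed to 3.14 and 3.96 FPKM in control cells against 2.66 and 2.61 after knockdown. KLRK1 was the largest part, at 1.63 and 2.27 FPKM in control cells against 1.32 and 1.18 after knockdown. NKG7, CD3E and TYROBP were listed at 0 in every library and PTPRC at no more than 0.00592. The 7 fibroblast markers, of which COL1A1 made up nearly all, summed to 3.77 to 5.06 FPKM in control cells and 6.24 to 6.43 after knockdown, and the 6 endothelial markers to at most 0.429. The part of these markers in the results was not tested. Nothing in the labels tells whether the replicates were grown separately, so every p-value here rests on a spread that could be technical.

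Of the 6 tested ligand genes, 5 fell in the knockdown, 0 rose (none at an unadjusted p under 0.05 either), and ULBP3 did not pass the test (limma, Benjamini-Hochberg). Among all tested features 37.1% were called in either direction, and 18.9% were called and lower. The median log2 change was -0.61 over the 6 tested ligand genes and -0.003 over all tested features. For 5 of the 6 tested ligand genes, both knockdown libraries lay below both controls, as did 36.5% of tested features. With RAET1E and RAET1G, which were under the level required for testing, this held for 7 of the 8 genes. The count of ligand genes called was 3 when either control library was left out, or knockdown replicate 1. MICB, ULBP1 and ULBP2 stayed called in all 12 alternative settings, whereas MICA and RAET1L did not. In bulk RNA, fewer cells expressing a gene and less of its RNA per cell cannot be told apart.

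**Figure D1:**
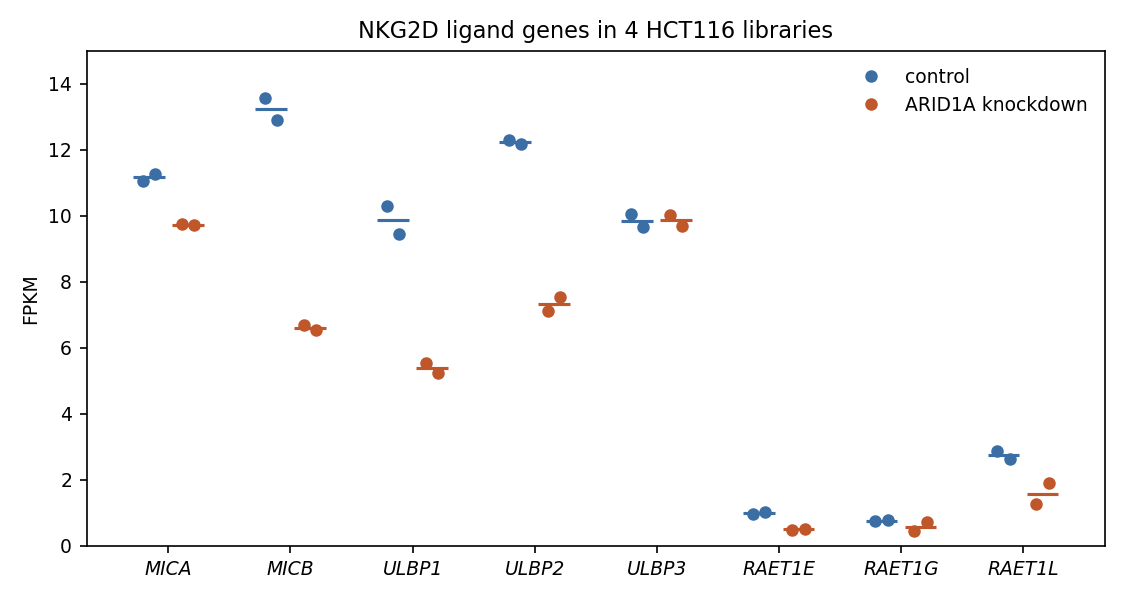
Level of each NKG2D ligand gene in FPKM (vertical axis) in the 2 control and 2 ARID1A knockdown libraries. Points are libraries and short lines are group means. MICB, ULBP1 and ULBP2 show the widest gaps between the groups, and the groups of ULBP3 overlap.

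MICB, on GRCh38 chromosome 6 from 31494881 to 31511124, was the most abundant ligand transcript in both controls, at 13.6 and 12.9 FPKM, against 6.68 and 6.52 in the knockdown libraries. The groups were far apart relative to the gap between replicates. Its log2 change was -0.91 (SE 0.0556, 95% interval -1.05 to -0.76; limma adjusted p = 0.00108), the steepest of the ligand genes, and only 1.73% of tested features had a lower log2 change. Over the 12 alternatives the change ran from -0.99 to -0.87 and the adjusted p from 6.21e-04 to 0.0206.

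MICA, from 31399784 to 31415315 on the same chromosome, was at 11.05 and 11.28 FPKM in control cells against 9.75 and 9.72 after knockdown. The groups did not overlap, but the knockdown kept 87.2% of the control level. The log2 change of -0.18 (SE 0.0493, 95% interval -0.31 to -0.052) had a limma adjusted p of 0.0444. The call was kept in 3 of 12 alternatives and lost when any library was left out (adjusted p from 0.131 to 0.170). AL645933.5, an overlapping feature spanning 31400702 to 31463705, went the other way: it was at 2.39 and 2.50 FPKM in control cells against 3.35 and 4.004 after knockdown (limma adjusted p = 0.0294). That call was lost without either control (0.119 and 0.103) and without knockdown replicate 2 (0.0984). The sum of MICA and AL645933.5 was 13.4 and 13.8 FPKM in control cells against 13.1 and 13.7 after knockdown, groups that overlap. FPKM are scaled by transcript length, so this sum is not a total of reads. Whether reads moved between the 2 features was not tested. Of the 1337 windows of 50 bases in the main MICA transcript, 33 occur in another gene, and all 33 occur in MICB. None was listed as shared with AL645933.5. Other transcripts of MICA were not searched in this way. The sources used here do not give the annotation release, the strand or the handling of shared reads. Reads of any other overlapping parts therefore cannot be told apart.

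MICA and MICB are 78.8% identical over their coding bases (GENCODE 29), and only 2.5% and 2.9% of the 50-base windows of their main transcripts occur in another gene. The difference between MICA and MICB within a library, in log2(FPKM + 1), was -0.28 and -0.18 in control cells against 0.49 and 0.51 after knockdown. MICB was thus the higher in both controls and MICA in both knockdown libraries. The change in this difference was 0.72 (SE 0.0498), with an exact two-sided permutation p of 0.333, the smallest that 2 libraries against 2 can give, and 0.416 after Benjamini-Hochberg adjustment over 15 pairs of ligand genes. No pair could reach 0.05.

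The promoters of MICA and MICB are shown because the genes changed by such different amounts. Over the 250 bases before the RefSeq start sites they are 82.7% identical. Both loci in the files start upstream of these start sites. The stretches printed end before the first exon that GENCODE 29 gives the gene within that window, are from RefSeq on GRCh38.p14, and run 5′ to 3′ on the plus strand, for MICA chr6:31403345-31403578 and for MICB chr6:31497895-31498085. Capitals mark matches on either strand to 3 motifs: a heat shock element core (GAANNTTC, which reads the same on both strands), a GC box (GGGCGG) and a CCAAT box (CCAAT). No marked match overlaps another. The motifs in these promoters and those below were chosen after the values had been seen.
MICA: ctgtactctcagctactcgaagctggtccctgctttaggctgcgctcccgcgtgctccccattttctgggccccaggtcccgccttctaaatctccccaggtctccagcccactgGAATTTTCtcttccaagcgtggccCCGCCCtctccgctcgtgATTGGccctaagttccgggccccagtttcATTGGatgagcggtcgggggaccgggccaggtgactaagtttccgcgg
MICB: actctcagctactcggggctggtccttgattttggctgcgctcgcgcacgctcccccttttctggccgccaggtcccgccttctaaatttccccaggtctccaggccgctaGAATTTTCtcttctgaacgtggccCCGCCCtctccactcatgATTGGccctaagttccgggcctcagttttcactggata
Both hold the same heat shock element core, GAATTTTC, whose first base lies 135 bases before the start site in MICA and 139 in MICB. Of 35116 RefSeq promoters of that length, 5.8% hold such a core, 42.6% a GC box and 32.0% a CCAAT box. Each of the 2 promoters holds 1 GC box, and MICA has 2 CCAAT boxes where MICB has 1. These matches are descriptions of the letters and were not measured as binding sites. HSF1, the heat shock factor known to bind such elements in MICA and MICB, was at 80.7 and 79.3 FPKM in control cells against 79.2 and 84.5 after knockdown (limma adjusted p = 0.609).

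ULBP1, from 149963943 to 149973715, was at 10.3 and 9.45 FPKM in control cells against 5.52 and 5.22 after knockdown. All knockdown values were far below the controls. The log2 change was -0.77 (SE 0.0688, 95% interval -0.95 to -0.59; limma adjusted p = 0.00252), and 2.57% of tested features had a lower one.

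ULBP2, from 149942014 to 149949235, was at 12.3 and 12.2 FPKM in control cells against 7.12 and 7.52 after knockdown, second to MICB in both controls. The groups again did not overlap, and 59.9% of the control mean was left. The log2 change was -0.67 (SE 0.0548, 95% interval -0.81 to -0.53; limma adjusted p = 0.00208). Across the 12 alternatives, the change of ULBP1 ran from -0.87 to -0.71 and that of ULBP2 from -0.73 to -0.63.

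ULBP3, the gene at the far end of the same cluster (150061053 to 150069121), was at 10.04 and 9.66 FPKM in control cells against 10.03 and 9.69 after knockdown. The groups overlap almost completely. The log2 change was 0.0017 (SE 0.0539; limma adjusted p = 0.984). Its 95% interval from -0.14 to 0.14 leaves out the estimated change of each of the other 5 tested ligand genes. It overlaps the interval of MICA (-0.31 to -0.052) but not those of MICB, ULBP1, ULBP2 and RAET1L. The sign of the near-zero ULBP3 change differed between settings, which gave -0.023 to 0.027. In the controls ULBP1 and ULBP3 were level, and their order differed between the 2 libraries. In the knockdown libraries ULBP1 was below ULBP3 by 0.76 and 0.78 in log2(FPKM + 1), against 0.033 above and 0.029 below in the controls. The change in that difference was -0.77 (SE 0.0331; exact permutation p = 0.333, the smallest possible here).

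The promoters of ULBP1, ULBP2 and ULBP3 are shown because the first and second fell and the third did not pass the test. They are from RefSeq on GRCh38.p14, 5′ to 3′, with ULBP1 at chr6:149963693-149963942 and ULBP2 at chr6:149941764-149941999 on the plus strand and ULBP3 at chr6:150069122-150069371 on the minus strand. Capitals mark, on either strand, the GC box and CCAAT box letters given for the MIC promoters. They also mark TGACG, the core of a cyclic AMP response element (CRE), and no marked match overlaps another.
ULBP1: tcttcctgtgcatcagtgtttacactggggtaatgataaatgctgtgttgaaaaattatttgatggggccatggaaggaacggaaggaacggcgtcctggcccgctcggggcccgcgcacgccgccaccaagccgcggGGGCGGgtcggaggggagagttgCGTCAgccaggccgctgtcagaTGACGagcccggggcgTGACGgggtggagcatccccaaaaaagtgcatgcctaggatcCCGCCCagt
ULBP2: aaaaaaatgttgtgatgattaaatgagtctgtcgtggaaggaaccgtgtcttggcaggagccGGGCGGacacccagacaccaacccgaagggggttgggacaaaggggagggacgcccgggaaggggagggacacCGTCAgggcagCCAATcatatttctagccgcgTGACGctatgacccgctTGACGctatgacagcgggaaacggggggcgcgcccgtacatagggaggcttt
ULBP3: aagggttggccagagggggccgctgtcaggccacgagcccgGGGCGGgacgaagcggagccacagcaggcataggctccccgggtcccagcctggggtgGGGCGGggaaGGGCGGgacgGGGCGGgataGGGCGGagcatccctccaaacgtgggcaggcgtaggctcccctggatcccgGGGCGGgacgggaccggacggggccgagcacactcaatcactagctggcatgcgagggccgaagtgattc
ULBP1 and ULBP2 each hold 3 CRE cores, all within 115 bases of the start site. The other called ligand genes, MICA, MICB and RAET1L, hold none in the same window, and a related element also searched (TGATGNAA, in 3.1% of promoters) was found in no ligand gene. At least 1 CRE core occurs in 21.2% of RefSeq promoters of that length and 3 or more in 1.01%. A TATA box (TATAAA), an AP-1 site (TGANTCA) and an E-box (CACGTG) were searched for as well. Of the called ligand genes only RAET1L held any of these, an AP-1 site, which occurs in 6.6% of promoters. The ULBP3 window holds no such letters and has 6 GC boxes, where 2.22% of promoters have 6 or more. Its GC content is 72.0%, against 61.6% for ULBP1, 58.0% for ULBP2 and a median of 58.0% over all promoters. Over 250 bases the ULBP1 promoter is 44.0% identical to that of ULBP2, no more than the 45.2% it shares with ULBP3. The MICA promoter, from the other cluster, gave 43.4% with ULBP1, 40.4% with ULBP2 and 45.3% with ULBP3. Values of this size therefore do not show a closer relation among the ULBP promoters. ATF4, a stress-induced factor reported to act on the ULBP1 promoter, fell from 574 ± 5.66 to 444 ± 9.21 FPKM (SD, n = 2; limma adjusted p = 0.00275). SP1 and SP3, factors that bind GC boxes, rose from 20.6 ± 0.417 to 25.9 ± 0.612 FPKM and from 41.2 ± 0.823 to 45.4 ± 0.256 FPKM (SD, n = 2; limma adjusted p = 0.00797 and 0.0464). The call of SP3 was lost when any library was left out (0.110 to 0.194), and that of SP1 in 1 of the 4 such runs (0.0602). Whether these factors bear on the ligand genes was not tested.

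The 3 RAET1 genes were the least abundant. RAET1L, from 150018334 to 150025532, was at 2.88 and 2.63 FPKM in control cells against 1.26 and 1.90 after knockdown. Both knockdown values were below the controls, but they differed more from each other than the controls did. The log2 change of -0.55 (SE 0.148, 95% interval -0.94 to -0.17) had a limma adjusted p of 0.0421. The call was kept in 4 of 11 alternatives. It was lost on leaving out control replicate 1 (adjusted p = 0.164), control replicate 2 (0.127) or knockdown replicate 1 (0.091), and in the last of these the log2 change was -0.37.

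RAET1E, from 149883375 to 149898102, was at 0.952 and 1.03 FPKM in control cells against 0.485 and 0.511 after knockdown, 50.2% of the control mean. Its mean of 0.746 FPKM was under the level required for testing. With the required mean lowered to 0.1 FPKM the log2 change was -0.41 and the limma adjusted p 0.0324, and with no such requirement the adjusted p was 0.0551. RAET1G, from 149916878 to 149923121, was at 0.733 and 0.791 FPKM in control cells against 0.453 and 0.704 after knockdown. The values of RAET1G were lower in both knockdown libraries, 1 of them only just, and the adjusted p was 0.359 with a required mean of 0.1 FPKM and 0.465 with none. By the depth estimate, about 44 to 51 fragments lay behind a control value of RAET1E and 25 behind each knockdown value, against 1061 to 2022 for MICB. RAET1E and RAET1G both overlap the antisense gene RAET1E-AS1. It was listed at 0 and at 0.509 FPKM in control cells against 0.467 and 0.512 after knockdown. Of the 50-base windows of the main RAET1G transcript, 8.8% occur in RAET1E-AS1. Without a stated strand, reads of these windows cannot be told apart. No window of the main RAET1E transcript was listed as shared with RAET1E-AS1. Other transcripts of RAET1E and RAET1G were not searched in this way. Both genes also overlap AL355312.3, which was at 0.079 and 0.0332 FPKM in control cells against 0.101 and 0.177 after knockdown. RAET1E overlaps the longer feature AL355312.6 too, which was at no more than 0.0136 FPKM.

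Some ligand genes are close enough in sequence to share reads. The coding bases of ULBP2 and RAET1L are 96.7% identical, and 32.2% of the 50-base windows of ULBP2, 33.1% of those of RAET1L and 25.6% of those of RAET1G occur in another gene. The sources used here do not say how the authors' counting divided such reads, so the separate values of these 3 genes are uncertain to that extent. Their sum, which does not depend on a division among the 3 except through transcript length, was 15.9 and 15.6 FPKM in control cells against 8.84 and 10.1 after knockdown, 60.2% of the control mean. ULBP1 shared 6.9% of its windows and ULBP3 12.4%, in both cases with the pseudogene RAET1K, and 61 of these windows are common to ULBP1 and ULBP3. Of the windows of RAET1E, 92.4% occur in a longer gene that GENCODE 29 places at the locus the files call AL355312.6, so the value of RAET1E rests on how reads were divided between them. RAET1K was at 1.42 and 2.13 FPKM in control cells against 1.60 and 1.23 after knockdown (limma adjusted p = 0.416).

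**Figure D2:**
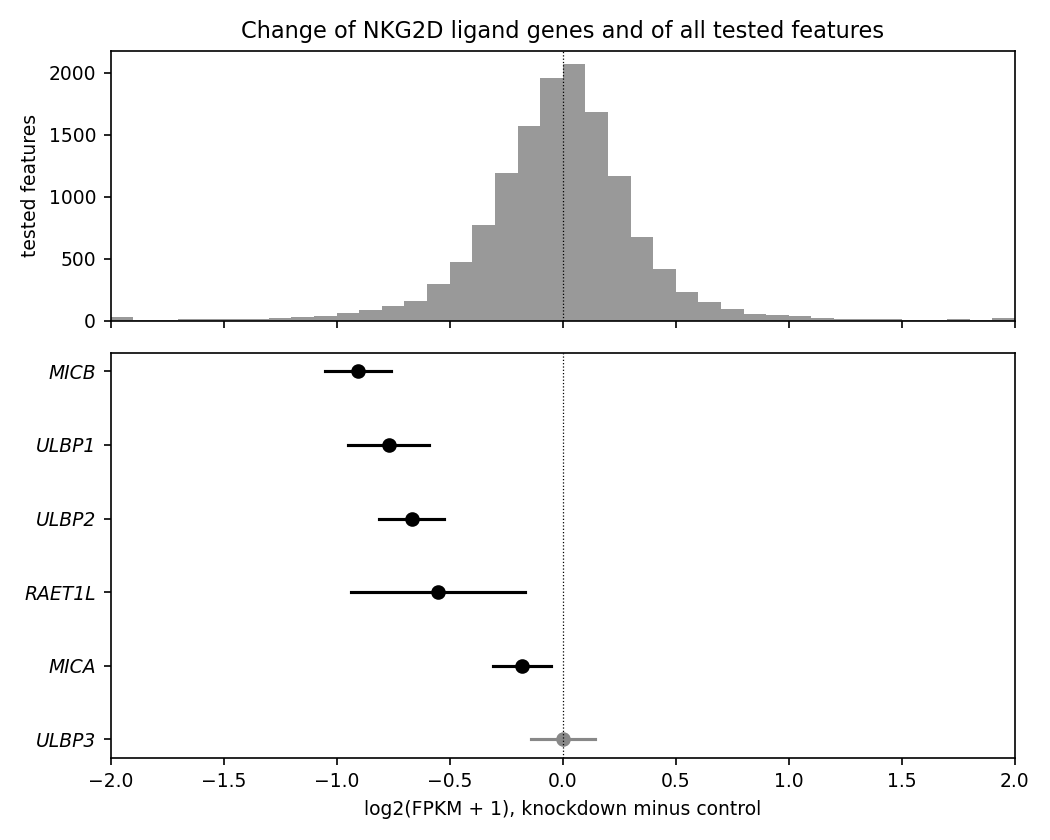
Change of the 6 tested NKG2D ligand genes (lower panel; points are log2(FPKM + 1), knockdown minus control, bars are 95% intervals from limma; black, fell; grey, did not pass) under the histogram of the same quantity over all 13605 tested features (upper panel; the end bins also hold values beyond the axis). MICB, ULBP1 and ULBP2 lie in the lower tail and ULBP3 at the centre.

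The unequal falls changed the makeup of the ligand transcripts. The 8 genes summed to 61.8 and 59.9 FPKM in control cells against 41.3 and 41.8 after knockdown, 68.3% of the control mean. The loss was similar in size for the MIC genes (66.9% left) and the RAET1/ULBP genes (69.2% left). In the controls the order was MICB, ULBP2 and MICA, then ULBP1 and ULBP3 in either order, then RAET1L, RAET1E and RAET1G. In the knockdown libraries ULBP3 and MICA held the top places in either order, followed by ULBP2, MICB, ULBP1 and RAET1L, with RAET1E and RAET1G last in either order. MICB went from 21.97% and 21.5% of the summed level to 16.2% and 15.6%. ULBP3 went from 16.2% and 16.1% to 24.3% and 23.2%, and MICA from 17.9% and 18.8% to 23.6% and 23.3%. ULBP3 took a larger share at an almost equal level, since a share depends on the sum.

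The change itself was compared for all 15 pairs of tested ligand genes. In 12 pairs the within-library difference did not overlap between the groups, which gave an exact permutation p of 0.333, or 0.416 after adjustment over the 15. The other 3 pairs, which join ULBP1, ULBP2 and RAET1L, overlapped. Their differences in log2 change were -0.10 (SE 0.0845) for ULBP1 minus ULBP2, -0.22 (SE 0.214) for ULBP1 minus RAET1L and -0.12 (SE 0.150) for ULBP2 minus RAET1L. These errors are too wide to show that the 3 genes changed alike.

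The features around the ligand genes were examined over 500 kb on either side of each cluster. Around the MIC genes, which span 111.3 kb, 38 other features were tested: 9 rose, 8 fell and 21 did not pass, with a median log2 change of -0.022. Around the RAET1/ULBP genes, which span 185.7 kb, 10 were tested: 2 rose, 3 fell and 5 did not pass, with a median of -0.13. Among all tested features 37.1% were called, and these counts were not tested against that share. Over both windows 22 features were called, but 9 on leaving out control replicate 1, 7 on leaving out control replicate 2 and 14 on leaving out knockdown replicate 2.

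Near the MIC genes the largest called changes were those of ZBTB12, a zinc finger gene, which fell from 9.23 ± 0.278 to 4.17 ± 0.0718 FPKM, and of the RNA gene SNHG32, which fell from 302 ± 6.16 to 182 ± 6.73 FPKM (SD, n = 2; limma adjusted p = 0.00109 and 9.64e-04). CFB, complement factor B, fell from 1.41 ± 0.1004 to 0.667 ± 0.107 FPKM (adjusted p = 0.0282), a call lost when any library was left out (0.051 to 0.108). Near the RAET1/ULBP genes, LRP11 fell from 19.8 ± 0.537 to 13.3 ± 0.673 FPKM and TAB2, an adaptor of the TAK1 kinase, rose from 25.2 ± 0.855 to 32.5 ± 0.688 FPKM (SD, n = 2; limma adjusted p = 0.00355 and 0.00631). PPP1R14C, a phosphatase inhibitor gene, fell from 7.95 ± 0.105 to 4.72 ± 0.716 FPKM (adjusted p = 0.0101), a call lost without either control (0.0684 and 0.0657).

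**Figure D3:**
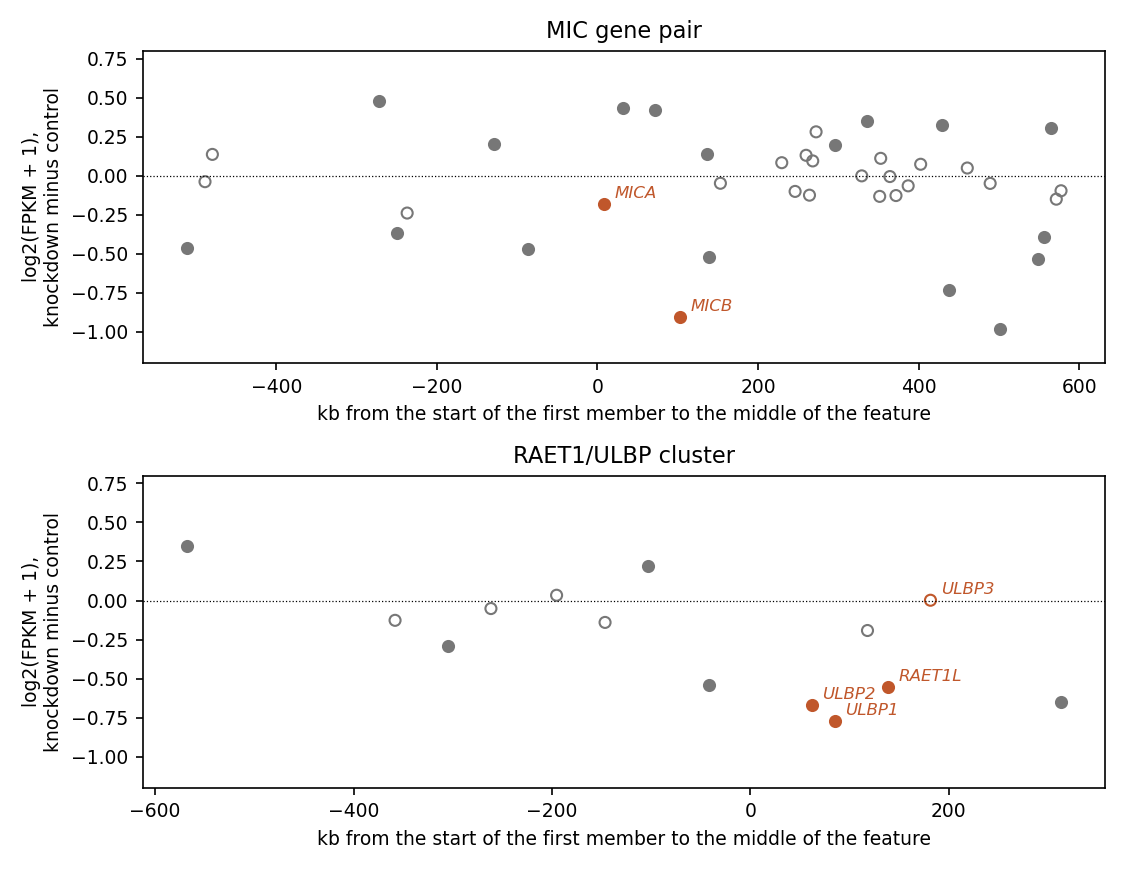
Change in log2(FPKM + 1), knockdown minus control, of tested features around the MIC genes (upper panel) and the RAET1/ULBP genes (lower panel), by distance in kb from the start of the first ligand gene to the middle of each feature. Coloured points are ligand genes, grey points other features, and filled points were called. In both windows, other features called lie on both sides of 0. Within the RAET1/ULBP cluster itself, the only other feature tested, RAET1K, was not called.

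The receptor and its adaptors were examined next. KLRK1, the NKG2D gene itself, was at 1.63 and 2.27 FPKM in control cells against 1.32 and 1.18 after knockdown and did not pass (limma adjusted p = 0.0974, unadjusted p = 0.0463). It lies within the readthrough gene KLRC4-KLRK1, which was at 2.62 and 2.48 FPKM in control cells against 1.26 and 1.17 after knockdown, and reads of the shared part cannot be told apart. KLRC4-KLRK1 fell (log2 change -0.68, SE 0.0957; limma adjusted p = 0.00782), a call lost without control replicate 1 (0.0519). HCST, the adaptor DAP10, was between 0.133 and 0.346 FPKM, and TYROBP, the adaptor DAP12, was listed at 0 in all 4 libraries. Of the 3 receptor and adaptor genes, the readthrough gene not counted, 1 was tested and 0 were called.

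Of 10 genes for proteases and cofactors that release NKG2D ligands, 8 were tested: 2 rose, 3 fell and 3 did not pass, with a median log2 change of -0.12. ADAM9, a membrane protease reported to cut MICA, was at 82.6 and 82.1 FPKM in control cells against 44.9 and 43.3 after knockdown (log2 change -0.89, SE 0.0377; limma adjusted p = 4.70e-04). ADAM10, a general ectodomain sheddase, went the other way, from 137 and 126 FPKM to 182 and 177 (0.45, SE 0.0523; adjusted p = 0.00484). MMP14, a membrane-type matrix metalloprotease, fell from 21.75 ± 0.00396 to 13.9 ± 1.34 FPKM (SD, n = 2; adjusted p = 0.00506). ADAM17, the other main sheddase, was at 18.6 and 18.5 FPKM in control cells against 17.8 and 17.1 after knockdown and did not pass (adjusted p = 0.218). The count of 5 called genes was 3 without either control.

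Of 27 genes that make, attach or trim GPI anchors, which hold several ULBP proteins at the surface, 26 were tested: 1 rose, 5 fell and 20 did not pass, with a median log2 change of -0.11. PIGL, a deacetylase of an early step, fell from 19.3 ± 1.12 to 13.1 ± 0.203 FPKM (limma adjusted p = 0.00407). PIGT, a subunit of the transamidase that attaches the anchor, fell from 39.8 ± 0.148 to 27.7 ± 0.588 FPKM (adjusted p = 0.00184). PIGX, a subunit of a mannosyltransferase, fell from 15.5 ± 0.724 to 11.1 ± 0.404 FPKM (SD, n = 2 for each; adjusted p = 0.00631). The count of 6 called was 3 without control replicate 1 or knockdown replicate 1.

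Of 25 genes reported to act on NKG2D ligand expression, all tested, 6 rose, 4 fell and 15 did not pass, with a median log2 change of -0.045. IGF2BP3, an RNA-binding protein reported to lower ULBP2 and MICB, rose from 25.8 ± 0.322 to 37.3 ± 2.95 FPKM (limma adjusted p = 0.00558; 0.0506 without control replicate 1). DICER1, a nuclease of microRNA maturation, rose from 4.71 ± 0.262 to 6.75 ± 0.141 FPKM (SD, n = 2; adjusted p = 0.00988; 0.0597 without control replicate 2 and 0.0564 without knockdown replicate 2). The largest fall was that of ATF4, given above. XBP1 and RELA were among the others that fell, and SP1, SP3, HDAC3 and MYC rose, each a call that was lost in at least 1 run with a library left out (highest adjusted p from 0.0602 for SP1 to 0.194 for SP3). ATM, ATR, CHEK1 and CHEK2, kinases of the DNA damage response that induces the ligands, did not pass (adjusted p from 0.213 to 0.556). The count of 10 called was 3 and 4 on leaving out the first or the second control, and 6 and 4 on leaving out the first or the second knockdown library.

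Of 18 genes for ligands of other natural killer cell receptors, 10 were tested: 2 rose, 4 fell and 4 did not pass, with a median log2 change of -0.087. NECTIN3, a nectin of cell contacts, rose from 29.9 ± 0.915 to 66.9 ± 2.86 FPKM (limma adjusted p = 4.78e-04). ICAM1, the ligand of the integrin LFA-1, fell from 5.98 ± 0.485 to 2.78 ± 0.293 FPKM (adjusted p = 0.00406). PVR, a ligand of DNAM-1 and TIGIT, fell from 31.7 ± 0.458 to 22.4 ± 0.118 FPKM (SD, n = 2 for each; adjusted p = 0.00213). The count of 6 called was 3 when either control library was left out, or knockdown replicate 2. The shares called in these 4 lists were not tested against the 37.1% of all features.

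**Figure D4:**
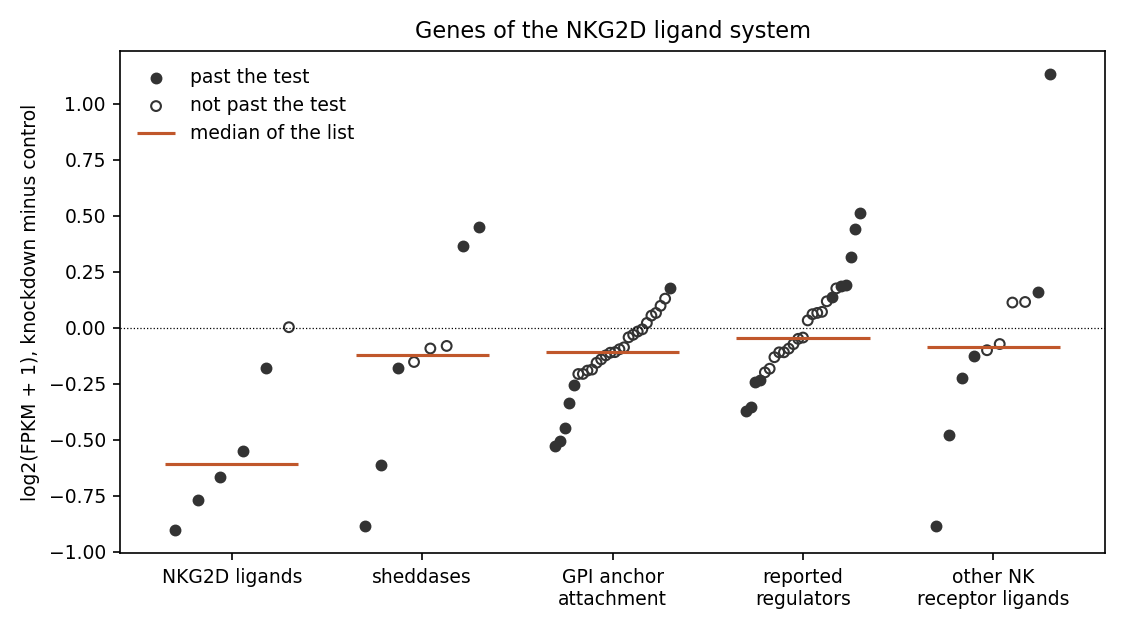
Change in log2(FPKM + 1), knockdown minus control (vertical axis), of the tested genes of 5 lists, ordered by value within each list. Filled points passed the test, open points did not, and lines are list medians: -0.61 for the ligand genes and -0.12, -0.11, -0.045 and -0.087 for the other lists from left to right.

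Among all tested features, those with the profile nearest to each called ligand gene were found by the Euclidean distance between log2(FPKM + 1) values centred over the 4 libraries. With 4 libraries in 2 groups, this mainly finds features with the same size of change and the same spread between replicates. For MICB they included HIPK3, a protein kinase (13.03 and 12.55 FPKM in control cells against 6.40 and 6.22 after knockdown; distance 0.0179), and TRIM2, a ubiquitin ligase (distance 0.0232). For ULBP1 they were FAM120C, RASSF8 and SIX4, at distances of 0.0353 to 0.0551, and for ULBP2 SGCE, NPC2 and BMP8B, at 0.0250 to 0.0348. For MICA they were ARPC1A, SPAG7 and AGGF1, at 0.0100 to 0.0138, and for RAET1L NICN1, CSF1 and PLSCR4, at 0.0584 to 0.0690. No ligand gene was among the 3 nearest features of another.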

How the data were processed

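RNA of HCT116 cells was sequenced in 2 control and 2 ARID1A knockdown libraries, made with a NEBNext Ultra kit per the labels' protocols. Each deposited table gives the FPKM values of 1 library, per the file headers. The tools were STAR and Cufflinks and the build GRCh38, per the submitters' processing notes. The sources used here do not give versions, annotation release, strand or filters. Of 60811 rows, 45 were removed as Y chromosome copies of pseudoautosomal genes also listed on X. Values below 1e-9, 2347 in all, were taken as 0, and 1 was added to each start.

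FPKM are not counts, so limma 3.58.1 in R 4.3.3 (lmFit, eBayes with trend) was fitted to log2(FPKM + 1) at a mean of at least 1 FPKM, with Benjamini-Hochberg adjustment, after tests on simulated data. In these, 200 of 13605 features were changed per run. The share recovered was 0.4% at a log2 change of 0.25, 25.2% at 0.5, 78.4% at 1 and 84% at 2. Of the simulated calls, 5.24% were false. In the real data 37.1% of features were called, so the simulated shares need not hold there. Pairs of ligand genes were compared by exact permutation. Depth came from low values, of which 76.2% to 78.2% up to 8 fragments were whole within 0.1, and fragments per gene also used GENCODE 29 lengths. Alternatives were a pseudocount of 0.1, 3 filters, 2 scalings, no trend, a replicate block and leaving out each library. The median log2 change of all features stayed between -0.013 and 0.0099 in these.

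Named genes were the ligand genes, ARID1A, the receptor genes, up to 3 called genes per list and window by size of change, and the 3 nearest profiles. Other genes were added after their values were seen. Some genes that the rule takes are not reported here. The members and lists were chosen with earlier results of these data known.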

Additional observations from a re-analysis of the deposited data

How the results depend on the processing

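The 5 ligand genes called became 3 with no filter on low values, with quantile normalization and with the replicate block, and 3 to 4 when a library was left out. Wherever 3 were called they were MICB, ULBP1 and ULBP2. The block changed the calls of MICA (adjusted p = 0.0848) and RAET1L (0.0637). The labels do not say that a number marks a shared culture, the deviations of control 1 and knockdown 1 from their group means correlated at -0.0099 (with 2 libraries a group there is no second independent value), and the numbers were not taken to pair the samples. Over all features, 5046 calls became 2786 with no filter and 1900 to 3259 when a library was left out. Calls in the lists went from 27 to 12 to 18 when a library was left out. Calls near the clusters went from 22 to 13 with no filter and 7 to 15 when a library was left out. A run without a library has 1 library in that group, whose spread is taken from the other group. Among the named genes followed through the settings, no direction that passed the test was reversed. Directions of the other features were not compared. The cause of these losses was not tested. RAET1E and RAET1G rested on 25 to 51 estimated fragments per library, and the part of depth in their results was not tested.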
